A study of Mus musculus with 4 samples.

Results

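The Homer family comprises 3 genes, Homer1, Homer2 and Homer3, and was followed here through the 10 probe sets that the platform annotation assigns to 1 of them alone, out of 34945 probe sets (18193 genes) with a single gene symbol. Homer1 had 6 probe sets, Homer2 had 3 and Homer3 had 1, and no probe set was shared with another gene symbol (0 found). RNA came from tissue punches of prelimbic cortex, which lies in the medial prefrontal area; the animals were male mice at postnatal day 90. The 2 fluoxetine arrays came from mice exposed prenatally to that drug, which blocks serotonin reuptake, and the 2 untreated arrays from control males of the same age. Both arrays of each group are described as biological duplicates, and the labels are silent on strain, dose, days of exposure, litters and any pooling of mice. The family was chosen by its measured differences between fluoxetine and untreated arrays, above all those of 1 Homer1 probe set, so its values in that comparison are given as a description without a test.

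Homer proteins are scaffolds of the excitatory synapse. Their amino-terminal EVH1 domain binds proline-rich stretches in group I metabotropic glutamate receptors, inositol trisphosphate and ryanodine receptors, Shank proteins and some TRPC channels, and the carboxy-terminal coiled coil of the long forms joins Homer molecules into multimers, so that receptors on the surface are tied to calcium stores and to the postsynaptic density. Homer1 also gives rise to a short form, Homer1a, which keeps the EVH1 domain, lacks the coiled coil, is transcribed rapidly after neuronal activity and ends at an alternative polyadenylation site within the gene. It competes with the long forms for their ligands. Probe sets placed at different positions of Homer1 can therefore read different mixtures of transcripts. The annotation used here gives each probe set a gene and 1 source sequence but no transcript form. Of the 10 source sequences, 1 matched a RefSeq transcript of its gene by accession, that of Homer1 probe set 1421768_a_at, and the form read by each of the others was not analysed here. A suffix _a_at marks probe sets that the manufacturer designed to read several transcripts of the same gene.

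The promoter sequences of Homer1 and Homer2 are shown for comparison. Whether they bear on the differences between fluoxetine and untreated arrays was not tested. Both are the 250 bases upstream of the first listed RefSeq start of the gene (build GRCm38.p6), on the gene's strand, 5′ to 3′, at chr13:93303507-93303756 on the plus strand for Homer1 and chr7:81706926-81707175 on the minus strand for Homer2. Capitals mark TGACG, the core of the cAMP response element bound by CREB, which was searched on both strands.
Homer1: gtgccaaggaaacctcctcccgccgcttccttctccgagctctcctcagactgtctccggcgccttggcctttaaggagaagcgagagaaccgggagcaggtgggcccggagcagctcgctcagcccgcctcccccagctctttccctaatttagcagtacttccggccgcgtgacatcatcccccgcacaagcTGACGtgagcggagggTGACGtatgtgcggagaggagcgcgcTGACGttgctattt
Homer2: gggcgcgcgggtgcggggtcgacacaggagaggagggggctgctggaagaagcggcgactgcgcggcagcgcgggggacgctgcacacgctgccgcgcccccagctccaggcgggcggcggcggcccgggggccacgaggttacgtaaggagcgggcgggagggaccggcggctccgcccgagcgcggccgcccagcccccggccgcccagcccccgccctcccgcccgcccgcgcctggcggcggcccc
The Homer1 window held 3 copies, beginning 56, 40 and 14 bases before the start, and the Homer2 window held 0. The window of the second listed Homer1 start, the second Homer2 window and the Homer3 window also held 0. Over 32851 upstream windows of the same length, 17.8% held at least 1 copy and 0.688% held at least 3. The full palindrome TGACGTCA, of which TGACG is part, and the CArG box bound by serum response factor were found in 0 of the 5 Homer windows, against 1.55% and 1.47% of all windows. A match describes these letters and not a site in use.

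Array medians, in log2 intensity, were 6.43 and 6.46 in the fluoxetine group against 6.50 and 6.47 in the untreated group. The 24 poly-A control probe sets, which read spiked RNAs, had a median difference of 0.24 higher with fluoxetine, with 17 of them higher on both fluoxetine arrays. Markers of excitatory neurons were measured for 5 of 6 listed genes, with a mean log2 intensity of 10.83 to 10.94 on the fluoxetine arrays and 10.78 to 10.84 on the untreated arrays. Striatal medium spiny neuron markers, for tissue that lies next to the medial prefrontal cortex, averaged 7.89 and 8.27 with fluoxetine and 8.13 and 9.30 without over 6 of 8 listed genes, so that untreated replicate 2 stood apart. Oligodendrocyte markers averaged 11.42 on both fluoxetine arrays and 11.40 and 11.67 without, again highest in untreated replicate 2 (7 of 8 listed genes). By brightest probe set, 2 of the 7 were lower at an unadjusted p below 0.05 (limma), beside 3.4% over all genes, and 0 after adjustment. These were Mag (−0.24) and Sox10 (−0.26), each lower on both fluoxetine arrays than on both untreated arrays. Astrocyte markers averaged 10.66 and 10.76 with fluoxetine and 10.59 and 10.65 without (6 of 6), higher on both fluoxetine arrays. By brightest probe set, 3 of the 6 astrocyte markers were higher at an unadjusted p below 0.05 (limma), beside 3.26% over all genes, and 0 after adjustment. Gfap went the other way, at −0.13, and Aldh1l1 differed by 0.003. Averages overlapped between the groups for interneuron markers (11.28 to 11.41 against 11.24 to 11.36, 6 of 6). They also overlapped for microglia (9.87 and 9.94 against 9.89 and 9.95) and endothelial markers (9.10 and 9.16 against 9.06 and 9.10). The part of these lists and of the control RNAs in the Homer values was not tested. The values without each array, given below, cannot test a shift shared by both arrays of a group. In tissue punches, fewer cells of a type and less RNA per cell cannot be told apart.

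Homer1 was higher with fluoxetine in 5 of its 6 probe sets when judged by whether both fluoxetine arrays lay above both untreated arrays, and the size of the difference depended strongly on the probe set. Of all 34945 probe sets tested, 19.9% had this arrangement and 20.0% the opposite one. Among the 17472 probe sets above the median level, where 5 of the 6 Homer1 probe sets lie, the shares were 27.5% and 15%. The differences between group means ran from 0.02 to 1.08 on the log2 scale, where 1 is a doubling. Their median was 0.34, against −0.0065 over all probe sets and 0.016 over those above the median level. Probe set 1436387_at, 1425671_at and the remaining 4 differed to very unequal degrees, so each is described on its own. Since the comparison itself led to the choice of the family, nothing is read from the count of 5.

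Probe set 1436387_at, a bright one, gave the clearest separation of the groups. It read 11.04 and 10.99 on the fluoxetine arrays and 9.88 and 9.99 on the untreated arrays. Both fluoxetine arrays were high, both untreated arrays were low, and the gap between the nearest arrays of the groups was 1.003. The group means were 11.02 ± 0.03 (SD, n = 2) and 9.94 ± 0.08 (SD, n = 2), a log2 difference of 1.08 (SE 0.06) or 2.12-fold. Percentiles here are taken among all non-control probe sets of an array, with or without a gene symbol. The position of 1436387_at moved from percentiles 86.3 and 86.6 without fluoxetine to 93.2 and 93.3 with it. Among the 34945 probe sets its difference had rank 8 from the top, and among the 17472 with a mean level above the median it had rank 4. A difference of at least 1 in either direction was found in 17 probe sets (0.0486%), of which 11 were higher and 6 lower. Only 6 of the 17 were above the median level, and they belonged to Homer1, Malat1, Ttr and Gt(ROSA)26Sor.

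With any 1 array left out, the log2 difference of 1436387_at lay between 1.03 and 1.13. Without untreated replicate 2, the array with the highest striatal and oligodendrocyte markers, it was 1.13. An analysis that represents each gene by its brightest probe set takes 1437363_at for Homer1 and leaves 1436387_at out.

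**Figure D1:**
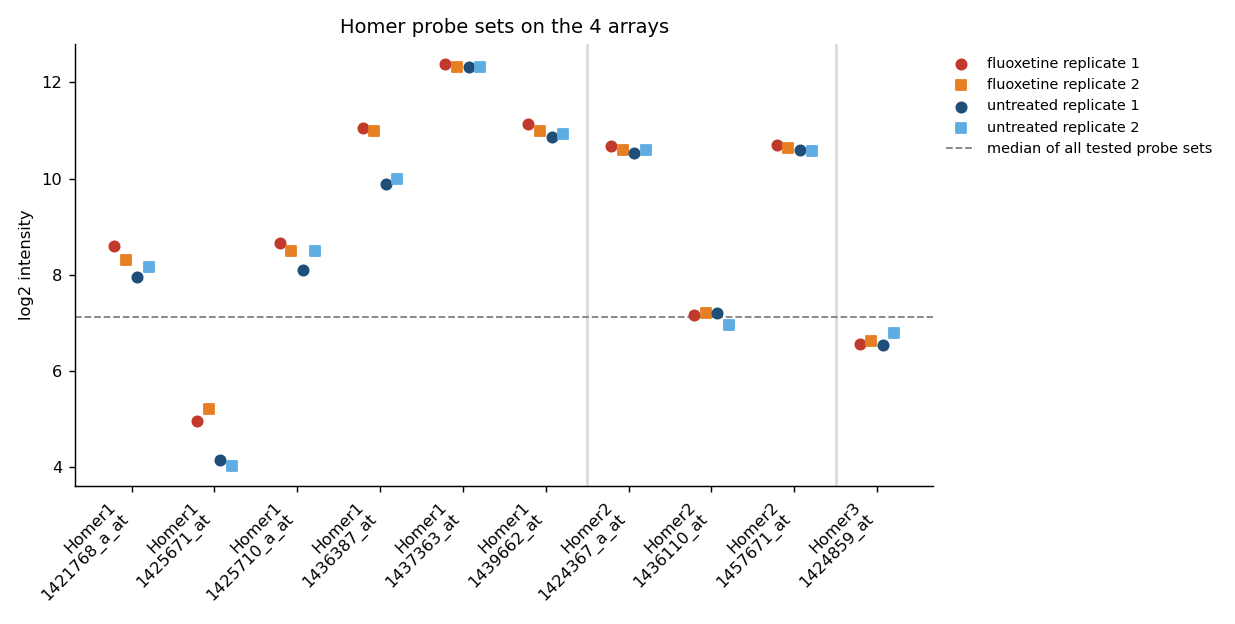
Log2 intensity of each of the 10 Homer probe sets (horizontal axis) on each of the 4 arrays; red and orange points are fluoxetine replicates 1 and 2, blue points untreated replicates 1 and 2, and the dashed line is the median mean level of all tested probe sets, 7.12. Homer1 1436387_at and 1425671_at show the widest gaps between the groups (1.003 and 0.80), while Homer1 1437363_at, the Homer2 probe sets and the Homer3 probe set show small gaps or overlapping points.

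Probe set 1425671_at showed a difference of similar size at a far lower level. It read 4.95 and 5.21 with fluoxetine and 4.15 and 4.02 without, so that both fluoxetine arrays were higher by at least 0.80. The group means were 5.08 ± 0.18 (SD, n = 2) and 4.09 ± 0.09 (SD, n = 2), and the log2 difference was 0.996 (SE 0.17). It lay at percentiles 20.6 to 20.9 of the untreated arrays and 31.1 to 33.7 of the fluoxetine arrays, below the median level of all tested probe sets, where a log2 difference depends most on how background was corrected. Without 1 array the difference ran from 0.87 to 1.13.

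The 2 probe sets designed to read several Homer1 transcripts had intermediate differences. Probe set 1421768_a_at, whose source sequence is a RefSeq transcript of Homer1, read 8.60 and 8.31 with fluoxetine and 7.95 and 8.16 without. Its groups did not overlap, with a gap of 0.15, and its log2 difference was 0.40 (SE 0.12). Probe set 1425710_a_at read 8.67 and 8.50 with fluoxetine and 8.10 and 8.50 without. Here fluoxetine replicate 2 and untreated replicate 2 were separated by only 0.0015, and the log2 difference of 0.29 (SE 0.14) rested on the low value of untreated replicate 1. It was 0.09 without untreated replicate 1 and 0.49 without untreated replicate 2. For 1421768_a_at the difference was 0.25 without fluoxetine replicate 1 and 0.55 without fluoxetine replicate 2.

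The remaining Homer1 probe sets were bright and differed little. Probe set 1439662_at read 11.13 and 10.99 with fluoxetine and 10.86 and 10.92 without, a log2 difference of 0.17 (SE 0.06). The groups were separated by 0.07, and the difference was 0.10 without fluoxetine replicate 1 and 0.24 without fluoxetine replicate 2. Probe set 1437363_at, the brightest of the family, read 12.38 and 12.31 with fluoxetine and 12.32 on both untreated arrays. Its groups overlapped, its log2 difference was 0.02 (SE 0.04), and the sign turned to −0.01 without fluoxetine replicate 1. It lay at percentile 97.8 to 97.9 on all 4 arrays.

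Read within each array, the Homer1 probe sets changed unequally. The value of 1436387_at minus that of 1437363_at was −1.34 and −1.32 on the fluoxetine arrays and −2.44 and −2.33 on the untreated arrays. The same subtraction gave a group difference of 0.97 for 1425671_at, 0.37 for 1421768_a_at, 0.26 for 1425710_a_at and 0.15 for 1439662_at. The highest and the lowest Homer1 differences were 1.06 apart. Among the 578 genes with at least 4 probe sets above the median level, this spread was the widest, with 5 such probe sets for Homer1, a median spread of 0.23 and Malat1 next at 0.995. Among the 1949 genes with at least 4 probe sets at any level, 16 had a wider spread and the median was 0.34. Among the 244 genes with 6 probe sets at any level, 4 had a wider spread and the median was 0.44. These ranks describe the probe sets that led to the choice of the family and carry no test.

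**Figure D2:**
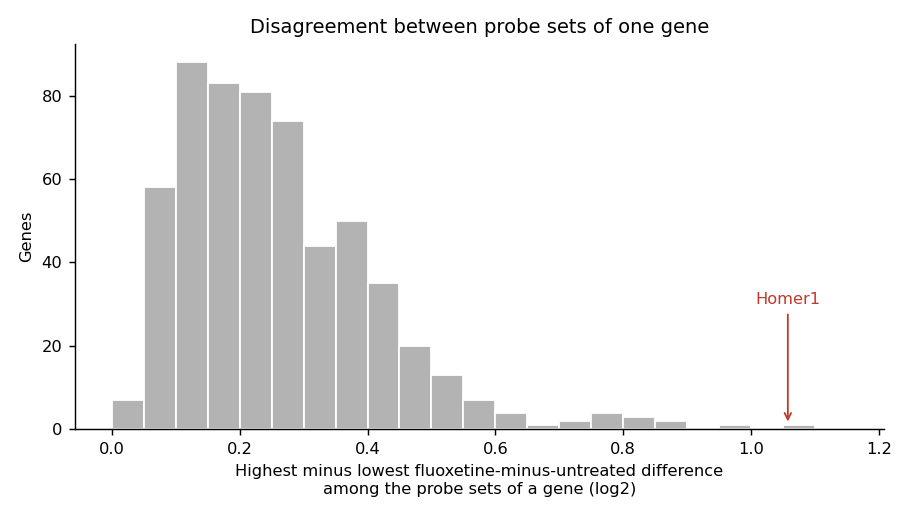
Number of genes (vertical axis) by the gap between the highest and the lowest fluoxetine minus untreated difference among a gene's probe sets, in log2 units (horizontal axis), for the 578 genes with at least 4 probe sets above the median level. Most genes lie near the median of 0.23, and Homer1, marked by the arrow, lies at 1.06.

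Homer2 encodes a long-form scaffold with the same domain layout, and its 3 probe sets gave differences within a narrow range, from 0.07 to 0.10. Probe set 1457671_at read 10.70 and 10.63 with fluoxetine and 10.60 and 10.56 without, a log2 difference of 0.08 (SE 0.05). It was the only Homer2 probe set whose groups did not overlap, by 0.03, and the groups overlapped after another quantile normalization. Probe set 1424367_a_at read 10.67 and 10.59 with fluoxetine and 10.54 and 10.59 without, a log2 difference of 0.07 (SE 0.06), with overlapping groups. Both lay near percentile 91, with array values between 90.8 and 91.4. Probe set 1436110_at was dimmer, at percentiles 55.7 to 58.7. It read 7.16 and 7.21 with fluoxetine and 7.21 and 6.96 without. Its difference of 0.10 (SE 0.12) rested on untreated replicate 2 and was −0.02 without that array.

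Homer3, the family member best known from cerebellar Purkinje cells, had a single probe set, 1424859_at. It read 6.57 and 6.62 with fluoxetine and 6.55 and 6.78 without, at percentiles 50.8 to 53.8, and its mean was below the median level of all tested probe sets. The groups overlapped, with a log2 difference of −0.07 (SE 0.12). Only untreated replicate 2 was high, and without it the difference was 0.04. The levels of the members are not ranked against each other, because probe sets differ in affinity and the deposited intensities are not scaled by transcript length.

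**Figure D3:**
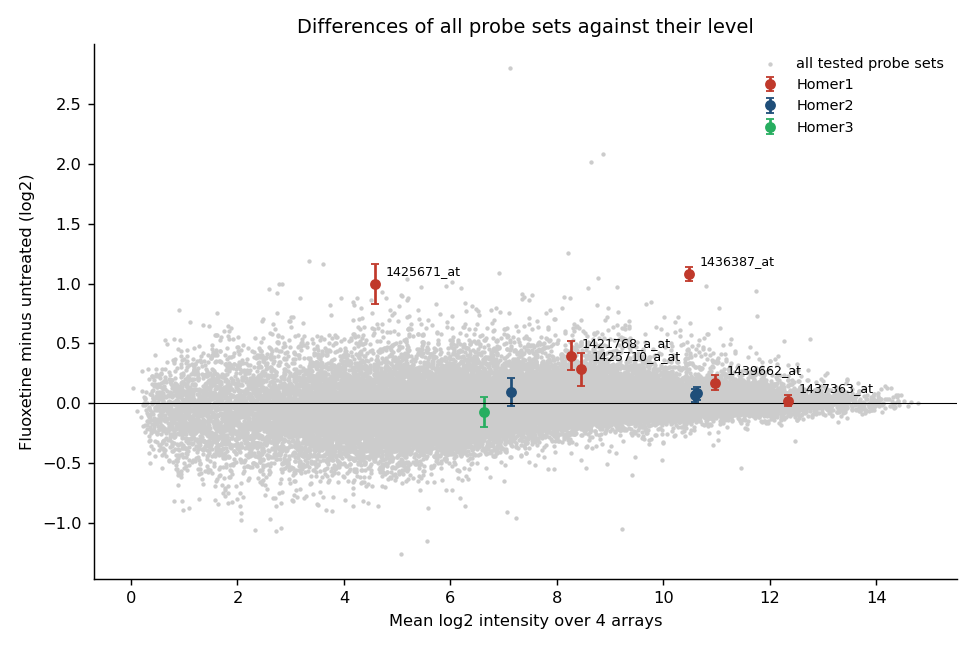
Fluoxetine minus untreated difference (log2, vertical axis) against the mean log2 intensity over the 4 arrays (horizontal axis) for all 34945 tested probe sets in grey; coloured points are the Homer probe sets and their bars are 1 SE of the limma fit. Homer1 1436387_at lies at 1.08, with rank 4 among the 17472 probe sets above the median level, while the Homer2 and Homer3 points lie between −0.07 and 0.10.

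Proteins that bind Homer were examined next, as genes outside the family. This list and those that follow were chosen with earlier results of these data known. They were read on the same arrays and in the same comparison, so their counts at the unadjusted threshold are descriptions and not independent tests. Each gene was represented by its brightest probe set. Of 16 listed genes 12 were measured, and the others were not analysed here. In the limma fit 0 were higher, 2 were lower and 10 missed an unadjusted threshold of 0.05, beside 3.26% higher and 3.4% lower over the 18193 genes, and 0 passed after adjustment over all probe sets tested. The median difference was −0.02 over the 12 genes (0.01 after subtracting array medians) and −0.02 over all genes. The 2 lower genes became 1 without fluoxetine replicate 1, without fluoxetine replicate 2 and without untreated replicate 2. Shank1, a master scaffold of the postsynaptic density that carries a Homer ligand motif, was one of the 2 lower genes. It read 6.65 and 6.70 with fluoxetine and 6.96 and 7.02 without, a log2 difference of −0.31 (SE 0.10) with an adjusted p of 0.444. Shank1 was below the median level.

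Dnm3, a dynamin of dendritic spines that Homer links to the endocytic zone, was the other. Its brightest probe set read 12.14 on both fluoxetine arrays and 12.28 and 12.29 on the untreated arrays, a log2 difference of −0.14 (SE 0.04; limma, adjusted p = 0.410). The 5 probe sets of Dnm3 disagreed, with differences from −0.14 to 0.88, so that no direction for the gene can be given. Among the receptors, Grm5, the group I metabotropic glutamate receptor of the forebrain, differed by 0.07 (SE 0.05), and its other probe set by 0.09. Ryr2, a calcium release channel, differed by −0.01 (SE 0.05), and Shank3 by −0.06 (SE 0.07). With the most variable probe set of each gene, 2 were higher, Dnm3 and Cdc42, and 2 lower, Shank1 and Ryr1. That choice favours differing probe sets and its share over all genes was not analysed here, so nothing is read from these counts.

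Signalling genes downstream of group I metabotropic glutamate receptors were measured for 14 of 18 listed genes. By the same threshold 1 was higher, 0 were lower and 13 missed it, against 3.26% higher and 3.4% lower over all genes, and the median difference was 0.00051 (−0.02 after another quantile normalization). The 1 gene was Fmr1, which encodes the translational repressor FMRP. It read 11.06 and 10.92 with fluoxetine and 10.81 and 10.84 without, a log2 difference of 0.16 (SE 0.06; limma, adjusted p = 0.487), and its 3 probe sets ran from −0.12 to 0.22. The count was 0 without fluoxetine replicate 1, without untreated replicate 1 and without untreated replicate 2, and 2 without fluoxetine replicate 2. Gnaq, the G protein subunit coupled to these receptors, differed by 0.09 (SE 0.05), and Plcb1, the phospholipase it activates, by −0.06 (SE 0.05). The most variable probe sets of these genes gave 3 higher, Gnaq (0.40), Plcb4 (0.54) and Rgs4 (0.34). The brightest probe sets of these 3 genes differed by 0.09, 0.05 and −0.0029. The share over all genes by the most variable probe set, a choice that favours differing probe sets, was not analysed here.

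The scaffold chain that connects Shank and Homer to receptors of the synaptic membrane, made of the Dlg and Dlgap families, was measured for all 8 listed genes. Here 1 was higher, 0 were lower and 7 missed the threshold, beside 3.26% and 3.4% over all genes. The median difference was −0.05, or −0.0086 after subtracting array medians and 0.03 with the most variable probe sets. Dlgap2 was the higher one. It read 7.40 and 7.32 with fluoxetine and 7.02 and 6.95 without, a log2 difference of 0.37 (SE 0.10; limma, adjusted p = 0.391). The count was 0 without fluoxetine replicate 1. Dlg4, which encodes PSD-95, differed by −0.07 (SE 0.05), and Dlgap1 by 0.07 (SE 0.05).

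Effector immediate early genes are induced by activity, as the short Homer1 form is, and encode proteins that act at synapses. All 12 listed genes were measured, of which 3 were higher, 1 was lower and 8 missed the unadjusted threshold, beside shares of 3.26% higher and 3.4% lower over all genes. None of the 12 passed after adjustment (limma, 0 genes), and the median difference was 0.09. With the most variable probe sets, a choice that favours differing ones, 4 were higher and 0 lower. The share over all genes by that choice was not analysed here. Bdnf, which encodes a neurotrophin, differed by 0.35 (SE 0.07; limma, adjusted p = 0.331), or by 0.07 with its other probe set. Plk3, a polo-like kinase gene, read 8.62 and 8.87 with fluoxetine and 8.49 and 8.44 without, a log2 difference of 0.29 (SE 0.10). Rheb, the small GTPase that activates mTOR signalling, differed by 0.10 (SE 0.04). Nptx2, a secreted pentraxin that clusters AMPA receptors, was the lower one, at −0.21 (SE 0.08), while its dimmer probe set differed by 0.33. Arc, an effector that acts on AMPA receptor endocytosis, differed by 0.12 (SE 0.06) and did not pass. The 4 genes past the unadjusted threshold became 2 without fluoxetine replicate 1, without fluoxetine replicate 2 and without untreated replicate 2, and the spiked control RNAs read 0.24 higher in the fluoxetine group.

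**Figure D4:**
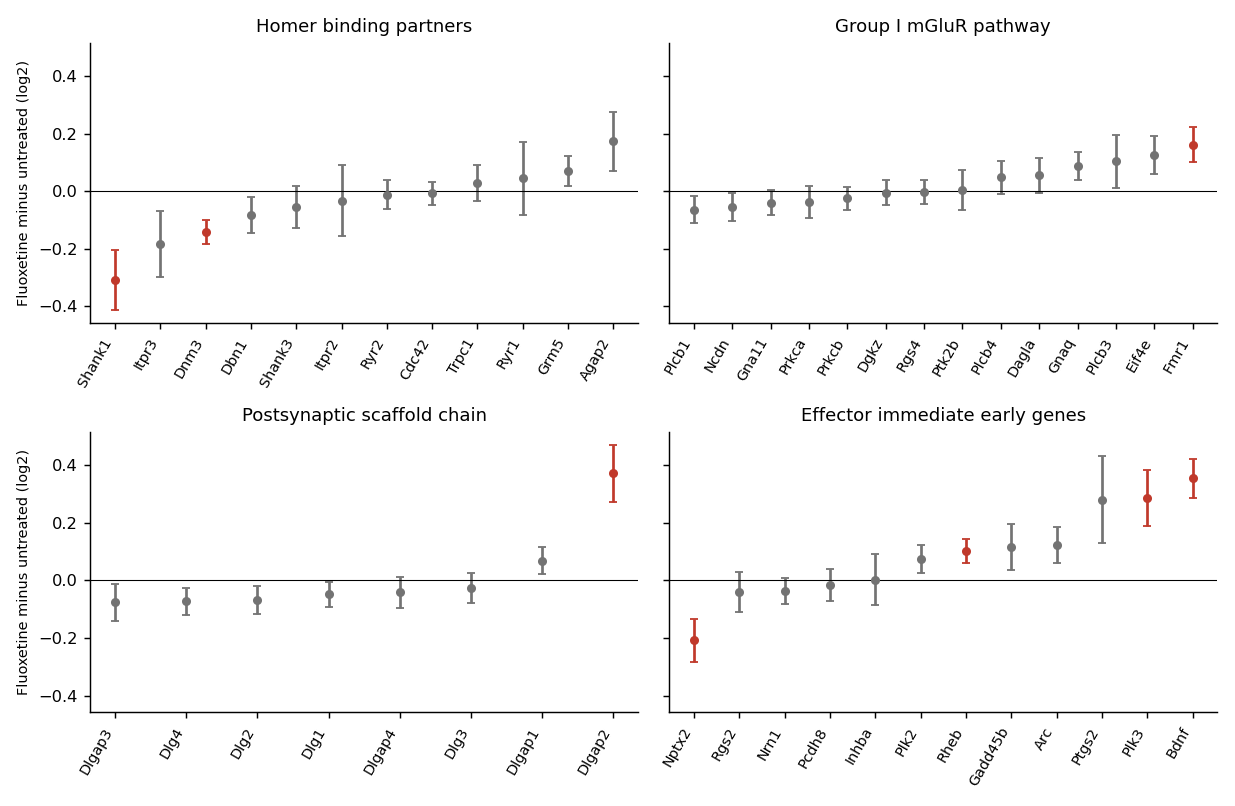
Fluoxetine minus untreated difference (log2, vertical axis) of each measured gene of the 4 lists, by its brightest probe set, with 1 SE of the limma fit; red marks an unadjusted p below 0.05. Differences run from −0.31 (Shank1) to 0.37 (Dlgap2). The brightest Homer1 probe set, 1437363_at, differs by 0.02 on the same scale.

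Likeness to the Homer1 profiles was measured as the root mean square distance between profiles over the 4 arrays, each centred on its own mean, among 17464 probe sets of other genes above the median level. The 5 nearest to 1436387_at belonged to Adgra1, an adhesion G protein-coupled receptor gene, Klf4, a zinc-finger transcription factor gene, Meg3, a noncoding RNA gene, Dnm3, by its probe set 1436875_at, and Gabra2, a GABA-A receptor subunit gene. Their distances were 0.18 to 0.22, and their log2 differences were 0.79 for Adgra1, 0.71 for Klf4, 0.83 for Meg3, 0.88 for Dnm3 and 0.91 for Gabra2, all smaller than that of 1436387_at. Adgra1, the nearest, read 9.39 and 9.33 with fluoxetine and 8.66 and 8.47 without. The 5 nearest to the flat probe set 1437363_at belonged to Kansl1, Fgd6, Stk39, Pcnx2 and Tut7, with distances of 0.0026 to 0.0043 and differences of 0.02 to 0.03. With 4 arrays, such nearness describes these arrays alone.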

How the data were processed

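On 4 Affymetrix 3' arrays, each from 250 ng of total RNA per the labels, the authors deposited RMA summaries per probe set as log2 intensity; affy and limma are also named, per the submitters' processing notes, with no version. That the scale is log2 was inferred from its range. Genes came from the platform annotation, and the 34945 probe sets with 1 symbol were kept separate and fitted together, with no filter on low values. Groups were compared with limma 3.58.1 in R 4.3.3 (lmFit, eBayes with an intensity trend, 2 residual degrees of freedom, two-sided, Benjamini-Hochberg over all probe sets). With 2 arrays against 2, the smallest exact two-sided permutation p is 0.333. A difference is the fluoxetine mean minus the untreated mean, with limma's moderated SE. The number of arrays limits the precision, and p-values reflect only the spread among them, which may be technical. Of all probe sets, 3301 (9.45%) had an unadjusted p below 0.05, 2237 higher and 1064 lower (2743 and 703 after subtracting array medians). Named genes were all Homer probe sets, up to 4 list genes with the smallest p below 0.05, the 5 nearest profiles to 2 Homer1 probe sets, and other list genes chosen after their values were seen. The members and lists were chosen with earlier results of these data known. On data simulated for this comparison over 34945 probe sets, 30.1%, 69.6% and 91.8% of changes of 1.5, 2 and 3-fold were recovered at an adjusted p below 0.05. The simulated noise was normal and independent, with variances drawn from the fit, and 200 probe sets were changed in each of 5 draws. It held no shift shared by the arrays of a group and no outlying array, so recovery on the real arrays may differ. Alternatives were another quantile normalization, median centring, no trend, bright probe sets only, 1 probe set per gene and leaving out each array. Promoter windows came from RefSeq (GRCm38.p6) and matched 3 of 3 genes.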

Additional observations from a re-analysis of the deposited data

How the results depend on the processing

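Under the 2 other normalizations, 18 of the 20 single-probe-set differences of the Homer family moved by less than the replicate SD; 1437363_at moved from 0.02 to 0.06 after subtracting array medians and 1457671_at from 0.08 to 0.04 after another quantile normalization. With 1 array left out, the differences shifted by up to 0.20 (1425710_a_at). Of these 40 values 3 changed sign, all in probe sets whose groups overlapped: 1437363_at without fluoxetine replicate 1 (−0.01), and 1436110_at (−0.02) and 1424859_at (0.04) without untreated replicate 2. The number of Homer probe sets with all fluoxetine arrays above all untreated arrays was 6, then 5 after another quantile normalization (19.7% of all probe sets), 8 after subtracting array medians (25.7%) and 6 to 8 with 1 array left out (29.9% to 40.0%), so that the share over all probe sets rose as well. For Homer1 it was 5, or 6 without fluoxetine replicate 2. The median percentile of the family was 80.8, and 79.9 to 82.0 with 1 array left out.

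The 3301 probe sets at an unadjusted p below 0.05 became 2047 among probe sets above the median level and 1266 with 1 probe set per gene, where fewer were tested, and 1044 to 3466 with 1 array left out. Of the lists, the 2 Homer partners became 1 after subtracting array medians, among bright probe sets and without the trend, and 4 when the most variable probe set stood for each gene. The 1 gene of the receptor pathway became 0 without the trend and 3 with the most variable probe sets, and the 1 scaffold gene 2 with them. Counts by the most variable probe set have no share over all genes beside them, and that choice favours probe sets that differ. The count of 4 effector genes was again 4 with the most variable probe sets, 2 after subtracting array medians and 1 without the trend. With 1 array left out these counts ran from 1 to 2, 0 to 2, 0 to 1 and 2 to 4. The cause of these changes was not tested. No paired analysis was possible because the labels give no replicate numbers shared between the groups. Signal over background was not analysed here.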
